A study of Homo sapiens with 12 samples.

Results

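HMLE-Twist is a mesenchymal-like human mammary line. It derives from HMLE cells, which are mammary epithelial cells immortalised with telomerase and the SV40 early region, and it carries the transcription factor TWIST1. The response of this line to salinomycin was read from 6 of the 12 libraries of the series, 3 treated with DMSO (mock) and 3 treated with 0.2 uM salinomycin for 24 h, over all genes that could be tested (11855 of the 26364 genes in each table). The other 6 libraries came from HMLE-pBp, the line labelled as not having undergone the epithelial-mesenchymal transition (EMT), under the same medium and treatments. They served to estimate the spread and to test where the responses of both lines differed. Each group held biological triplicates, per the series' design text. Whether the line is a single clone, and whether the triplicates were separate cultures, is not given in the sources used here, so p-values measure the spread between these samples.

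Salinomycin is a polyether antibiotic that carries monovalent cations across membranes, and it is known for its toxicity to breast cancer cells with mesenchymal and stem-like traits. Proteins made in the endoplasmic reticulum (ER) leave it in vesicles coated with COPII, pass an intermediate compartment and enter the Golgi apparatus. COPI vesicles carry escaped ER residents back, recognised by KDEL receptors. Cells that sense a shortage of Golgi capacity or a load of unfolded proteins raise transcription of the matching machinery through defined promoter elements. The kinases of the integrated stress response, among them PERK of the ER, raise ATF4, which turns on amino acid synthesis and transport. SV40 large T antigen, present in HMLE cells, binds p53 and the retinoblastoma protein, which limits the line as a model of the growth arrest pathways those proteins control.

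The labelled phenotype held in the data. All 17 mesenchymal markers examined stood at 1 FPKM (fragments scaled to gene length and library size) or more in each of the 6 libraries, and 12 of 18 epithelial markers stayed under 1 FPKM in all of them. In all 6 HMLE-pBp libraries 7 of the 17 mesenchymal and all 18 epithelial markers stood at 1 FPKM or more. The 17 include TWIST1, which the line carries. CDH1 (E-cadherin) was at most 0.155 FPKM, against at least 162 FPKM in HMLE-pBp. TWIST1 was at 506, 539 and 1110 FPKM in mock replicates 1, 2 and 3 and at 855, 708 and 1188 FPKM in the salinomycin replicates, and at most 2.55 FPKM in HMLE-pBp. Both libraries numbered 3 were the highest of their arm. The summed epithelial markers ranged from 30 to 35.3 FPKM in mock and from 32.6 to 37.7 FPKM after salinomycin, most of it PKP1. The summed endothelial markers were at most 1.5 and 1.86 FPKM. Of the leukocyte markers, CD3E was at 0 in all 6 libraries and PTPRC was at most 0.0242 FPKM. Library totals lay between 19.41 and 26.73 megareads. In bulk RNA, fewer cells of a kind and less RNA per cell cannot be told apart.

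Salinomycin changed 3124 of the 11855 genes (26.4%) at an adjusted p under 0.05 (limma, with Benjamini-Hochberg adjustment). Of all genes tested, 1519 rose (12.8%) and 1605 fell (13.5%). The rises were larger than the falls. Called rises had a median of 0.55 and called falls a median of -0.43 on the scale used throughout, salinomycin minus mock in log2(FPKM + 1), which understates the change of genes below a few FPKM. At least 2-fold rises numbered 186 and such falls 45, while 11 genes rose and 1 fell at least 4-fold. The share of falls grew with abundance. Among genes under 5 FPKM on average, 10.9% rose and 8.7% fell, and among those of at least 100 FPKM, 14.8% rose and 25.5% fell. The 3 salinomycin libraries did not overlap the 3 mock libraries in 3066 of the called genes. Over all genes tested, 19.1% were higher and 21.1% lower without overlap. With the replicate number as a block the calls came to 4785 (2316 rose, 2469 fell), of which 3122 were also called without it. Without salinomycin replicate 3 the falls came to 1046. The median difference over all tested genes was -0.013, which is the base against which the medians of gene groups below are given.

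**Figure D1:**
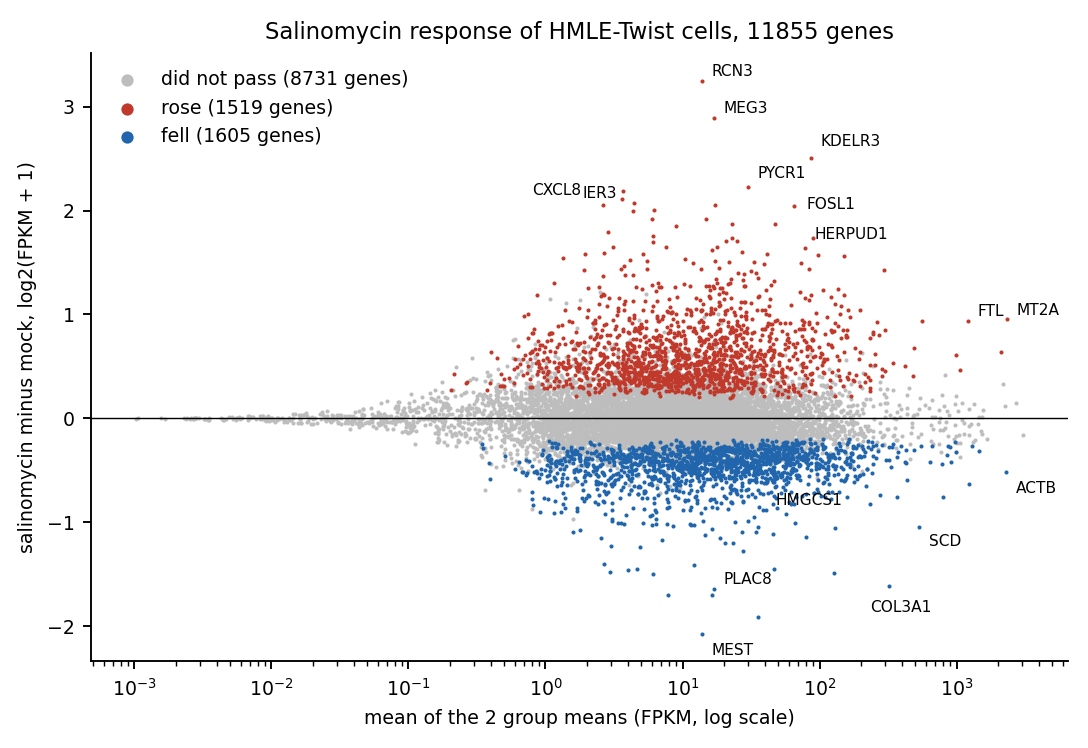
Each point is 1 gene, with the mean of the mock and salinomycin group means in FPKM on a log axis and the difference in log2(FPKM + 1) on the vertical axis. Red points rose (1519), blue points fell (1605) and grey points did not pass. RCN3 and MEG3 are the highest points, and among the most abundant genes MT2A and FTL lie above 0 and ACTB below it.

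The 3 largest rises were those of RCN3, MEG3 and KDELR3. RCN3, which binds calcium inside the ER, stood at 1.25, 2.204 and 2.18 FPKM in mock and at 24.6, 26.3 and 27.1 FPKM after salinomycin. The groups did not overlap, and the difference was 3.25 ± 0.12 (SE; adjusted p = 5.54e-08). MEG3, a long noncoding RNA of an imprinted cluster, was at 2.67, 3.19 and 3.97 FPKM in mock and 26.6, 31.02 and 34.1 FPKM after salinomycin, a difference of 2.89 ± 0.11 (adjusted p = 6.2e-08). Its recovered gene length was 0.27 of that of the reference. The rebuilt mock FPKM do not depend on this length, but the salinomycin FPKM do. A length recovered too short would therefore enlarge the rise, and whether it was too short was not tested. KDELR3, a receptor that returns escaped ER proteins, was at 26.2, 27.3 and 22.03 FPKM in mock and 148, 155 and 138 FPKM in the treated libraries (difference 2.51 ± 0.13, adjusted p = 3.6e-07). In all 3 genes every treated library lay above every mock library by several times the spread within either group. PYCR1, which makes proline, followed with 6.51, 13.6 and 10.7 FPKM and 46.6, 54.9 and 48.1 FPKM (difference 2.22 ± 0.19, adjusted p = 2.07e-05).

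Some genes outside all of the gene lists also rose. CPZ, a secreted carboxypeptidase, was at 0.622, 0.872 and 0.731 FPKM in mock and 5.84, 6.34 and 7.38 FPKM after salinomycin (difference 2.11 ± 0.09). RNF145, a ubiquitin ligase of the ER membrane, rose from 21.8, 17.1 and 20.1 FPKM to 78.98, 68.4 and 75.6 FPKM (difference 1.87 ± 0.10, adjusted p = 6.65e-07). MFSD2A, a transporter of lysophosphatidylcholine, rose by 1.85 ± 0.12, and GJB2, a gap junction connexin, by 1.80 ± 0.16. The largest rises and falls were named only from genes without overlap between groups, these 4 among them, so their separation was set by that rule. Of all genes tested, 19.1% were higher without overlap.

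The largest fall was that of MEST, an imprinted gene, from 21.9, 22.4 and 24.1 FPKM in mock to 2.82, 5.35 and 6.502 FPKM after salinomycin (difference -2.07 ± 0.21, adjusted p = 5.22e-05). It was the only gene among those tested that fell at least 4-fold by this fit. COL3A1, the chain of type III collagen, fell from 320.1, 609 and 500.3 FPKM to 83.2, 208 and 195 FPKM (difference -1.61 ± 0.30, adjusted p = 0.00213). Replicate 1 was the lowest in both groups, and the groups did not overlap. Other large falls were those of TMEM64 (-1.70 ± 0.15), WISP1 (-1.70 ± 0.19), a secreted Wnt target, PLAC8 (-1.64 ± 0.10), the kinase gene MAP2K6 (-1.49 ± 0.23, with a recovered length 0.14 of that of the reference) and OXTR, the oxytocin receptor (-1.41 ± 0.12). PEG10, derived from a retrotransposon, fell from 228, 199.9 and 139 FPKM to 61.8, 73.2 and 61.5 FPKM (difference -1.49 ± 0.18, adjusted p = 0.000123).

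**Figure D2:**
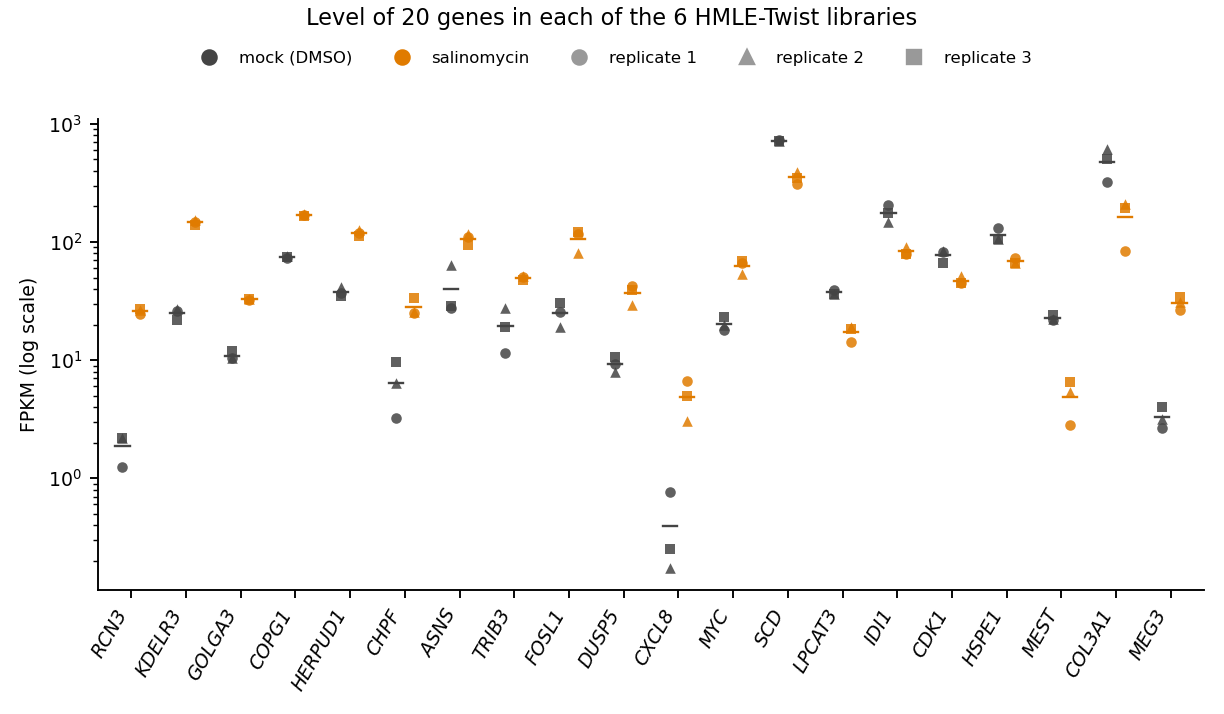
FPKM on a log axis for 20 genes in each of the 6 HMLE-Twist libraries, with mock in grey and salinomycin in orange; the symbol gives the replicate number and the bar the mean of 3. In each gene the 3 treated libraries lie on one side of the 3 mock libraries. RCN3 and MEG3 show the widest gaps, and CHPF and CXCL8 the widest scatter within the mock group.

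Promoter sequences were set beside these changes. The Golgi apparatus stress response element (GASE), known from studies of Golgi stress, reads ACGTGGC. It was searched on both strands in windows of 300 bases, from 250 upstream to 50 downstream of the gene start, taken from RefSeq on build GRCh38.p14. The windows below show the element in called genes of different roles: RCN3 and KDELR3 for the largest rises among the secretory genes, HERPUD1 for the ER, SEC24A for COPII, with 2 matches, and COPG1 for COPI. Capitals mark the match, which reads GCCACGT where it lies on the other strand, and each sequence runs 5′ to 3′ along the gene.
RCN3 (chr19:49527825-49527911, plus strand): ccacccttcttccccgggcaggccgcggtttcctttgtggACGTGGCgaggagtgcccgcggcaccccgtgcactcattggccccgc
KDELR3 (chr22:38468009-38468095, plus strand): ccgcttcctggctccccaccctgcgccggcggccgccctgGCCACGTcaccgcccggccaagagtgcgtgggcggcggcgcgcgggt
HERPUD1 (chr16:56931990-56932076, plus strand): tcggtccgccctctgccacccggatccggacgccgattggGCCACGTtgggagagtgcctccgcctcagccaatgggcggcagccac
SEC24A (chr5:134648568-134648784, plus strand): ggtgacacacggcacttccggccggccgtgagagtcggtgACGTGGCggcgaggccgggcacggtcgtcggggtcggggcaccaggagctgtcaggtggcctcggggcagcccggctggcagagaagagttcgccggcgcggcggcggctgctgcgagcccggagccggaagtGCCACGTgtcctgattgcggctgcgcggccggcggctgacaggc
COPG1 (chr3:129249558-129249605, plus strand): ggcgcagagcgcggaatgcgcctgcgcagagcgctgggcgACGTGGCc
The matches begin 138 bases upstream of the gene start in RCN3, 47 in KDELR3, 112 in HERPUD1 and 8 in COPG1.

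The element was found in 11.8% of the windows of genes that rose (143 of 1209) and in 1.54% of those of genes that fell (20 of 1302). It was in 3.75% of the windows of genes that did not pass, in 4.48% of all 9467 tested genes with a window and in 3.3% of all 27305 RefSeq windows. Among genes that rose at least 2-fold the share was 18.2% (25 of 137). By gene list, matches stood in 8 of 16 windows of the COPII coat (50%), 4 of 6 of the CREC family to which RCN3 belongs (66.7%), 7 of 20 of the ER translocation list (35%), 5 of 17 of the COPI list (29.4%) and 5 of 25 of the golgin and tether list (20%). They stood in 1 of 14 windows of the trans-Golgi list (7.14%) and 2 of 32 of the Golgi glycosylation enzymes (6.25%). All 8 COPII genes with a match rose. The median GC content of the windows was 66.7% for genes that rose, 64% for genes that fell and 65.3% for all, among the genes matched by their own symbol. Each GASE also holds the CCACG box of the ER stress element on its other strand. Counted outside GASE matches, CCACG was in 52.6% of windows of genes that rose and 46.2% of those that fell. The cyclic AMP element TGACGT, with windows that hold TGACGTGGC left out, was in 13% and 9.29%. In the HERPUD1 window the match directly follows ATTGG, which reads CCAAT on the other strand. CCAAT and CCACG boxes at that spacing were not searched for, so the GASE shares may include such sites. A match describes the letters in the window and not the binding of a factor.

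**Figure D3:**
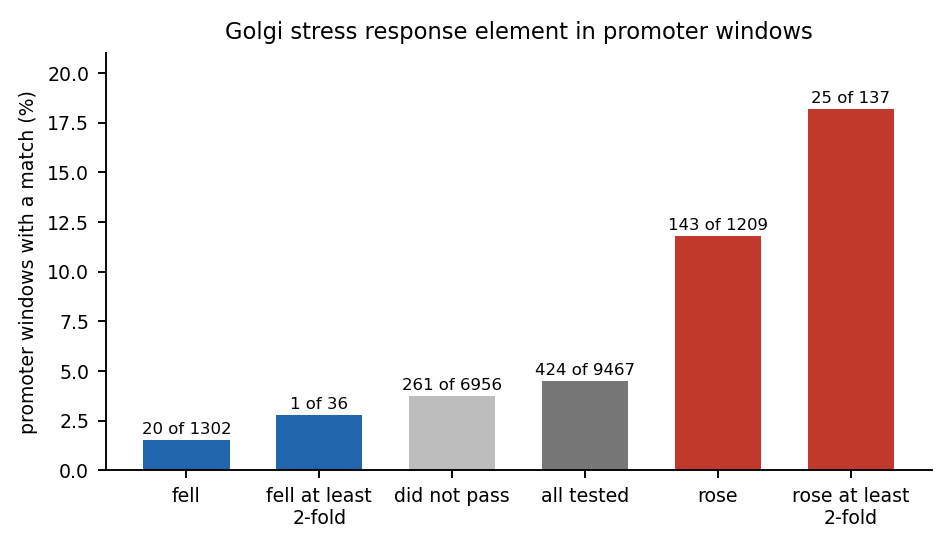
Share of promoter windows with a GASE match on the vertical axis, in percent, for tested genes grouped by their change; the numbers over the bars give windows with a match of all windows. The share is 1.54% for genes that fell, 4.48% for all tested genes and 18.2% for genes that rose at least 2-fold.

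The transport machinery between ER and Golgi rose broadly. All 3 KDEL receptors rose. KDELR1 was at 104, 112 and 124 FPKM in mock and 199.5, 192 and 203 FPKM after salinomycin, a difference of 0.80 ± 0.10. KDELR2 was at 146, 119 and 121 FPKM in mock and 267, 265 and 264 FPKM after salinomycin, a difference of 1.04 ± 0.09. Together the 3 receptors took 787, 710 and 718 TPM (transcript levels scaled to one total per library) in the mock libraries and 1711, 1744 and 1677 TPM in the treated ones, 2.32 times as much on average. Of 18 tested COPII genes 13 rose and none fell, with a median difference of 0.66. SEC24D, a cargo-selecting subunit, rose from 31.5, 25.1 and 22.3 FPKM to 69.7, 68.2 and 62.04 FPKM (difference 1.32 ± 0.15, adjusted p = 8.52e-05), and its paralog SEC24A from 11.97, 8.54 and 8.19 FPKM to 25.4, 21.7 and 19.96 FPKM (1.15 ± 0.15). SEC13, of the outer coat, rose by 1.24 ± 0.11 and SEC16A, which organises exit sites, by 1.16 ± 0.08. Paralogs of several subunits did not pass, with differences of 0.13 for SEC24B, 0.19 for SEC23B, 0.20 for SEC31B and 0.08 for SAR1B. Differences between paralogs were not tested.

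Of 19 tested COPI and ARF genes 13 rose and 1 fell (median 0.69). COPG1, a subunit of the coat's core, was at 72.95, 75.9 and 74.3 FPKM in mock and 168, 171 and 166 FPKM after salinomycin (difference 1.17 ± 0.07, adjusted p = 2.07e-06). The groups were separated by more than the level of the mock libraries themselves. ARF4, a GTPase of the early Golgi, rose from 175, 153 and 149.9 FPKM to 441, 457 and 391.6 FPKM (1.43 ± 0.16, adjusted p = 8.9e-05), ARFGAP1, which triggers GTP hydrolysis on ARF1, by 1.42 ± 0.14 and COPA by 1.19 ± 0.13. Among 29 cargo receptors, YIP proteins and SNAREs of the intermediate compartment 17 rose and 1 fell (median 0.54; with the replicate block 19 rose and 3 fell). YIF1A rose from 30.4, 45.1 and 49.7 FPKM to 141, 135 and 140.2 FPKM (1.74 ± 0.15), YIPF2 by 1.48 ± 0.18, the SNARE BET1L by 1.35 ± 0.09 and the cargo lectin LMAN1 by 1.02 ± 0.12. Of 9 p24 cargo adaptors 4 rose and none fell (median 0.23; 1 fell with the block), among them TMED9 (0.93 ± 0.11) and TMED3 (1.01 ± 0.10).

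Of 27 golgins, stacking proteins and tethers 18 rose and 1 fell (median 0.49). GOLGA3 stood at 10.3, 10.4 and 11.9 FPKM in mock and 32.5, 32.6 and 33.03 FPKM after salinomycin (difference 1.51 ± 0.07, adjusted p = 1.94e-07). GOLGA2 (GM130), which tethers vesicles at the cis face, was at 12.97, 13.6 and 14 FPKM in mock and 38.1, 37.1 and 36.4 FPKM after salinomycin (1.3956 ± 0.07, adjusted p = 1.94e-07). Both genes varied little within groups, so that every treated library exceeded every mock library by more than 2-fold. COG6, of the tethering complex for recycling vesicles, rose by 1.17 ± 0.15 and GOLGB1 (giantin) by 0.92 ± 0.10. Genes of the trans side of the Golgi did not share this broad rise. Of 17 tested genes for trans-Golgi exit and sorting 1 rose and 4 fell (median 0.04, 3 rose with the block). Among all genes tested 12.8% rose and 13.5% fell, and whether counts this small differ from those was not tested. TGOLN2, the marker protein of the trans-Golgi network, was at 53.8, 47.2 and 42.8 FPKM in mock and 50.96, 49.6 and 47.2 FPKM after salinomycin, with overlapping groups (difference 0.04 ± 0.09, adjusted p = 0.773). AP1S3, a subunit of the clathrin adaptor AP-1, fell from 7.83, 4.37 and 3.98 FPKM to 2.12, 2.02 and 2.05 FPKM (-1.01 ± 0.18, adjusted p = 0.00153). Summed TPM rose 1.5 times for the golgin and tether list and 1.06 times for the trans-Golgi list.

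Enzymes that work inside the Golgi changed in part. Of 39 glycosylation enzymes and sugar carriers 11 rose and 3 fell (median 0.08). SLC35A2, the carrier of UDP-galactose, rose from 8.66, 10.5 and 13.2 FPKM to 26.99, 24.2 and 29.2 FPKM (1.25 ± 0.15, adjusted p = 0.000134). GALNT3, which starts mucin-type O-glycans, rose by 1.26 ± 0.13 and B4GALT5, which makes lactosylceramide, by 1.096 ± 0.11. Of 30 genes for glycosaminoglycan synthesis 8 rose and 1 fell (median 0.08; 3 fell with the block). The largest change there was that of CHPF, a factor that polymerises chondroitin. It stood at 3.26, 6.39 and 9.599 FPKM in mock and 25.1, 25.4 and 33.9 FPKM after salinomycin (difference 2.06 ± 0.31, adjusted p = 0.000679). Replicate 3 was the highest in both groups and the groups did not overlap. Its paralog CHPF2 rose from 11.9, 14.8 and 17.9 FPKM to 29.6, 26.04 and 28.6 FPKM (0.89 ± 0.15), and PAPSS2, which makes the sulphate donor, by 1.06 ± 0.13. XYLT1, which attaches the first sugar of the chain, was at 11.1, 10.2 and 10.9 FPKM in mock and 10.4, 11.3 and 11.8 FPKM after salinomycin, with overlapping groups (adjusted p = 0.832).

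**Figure D4:**
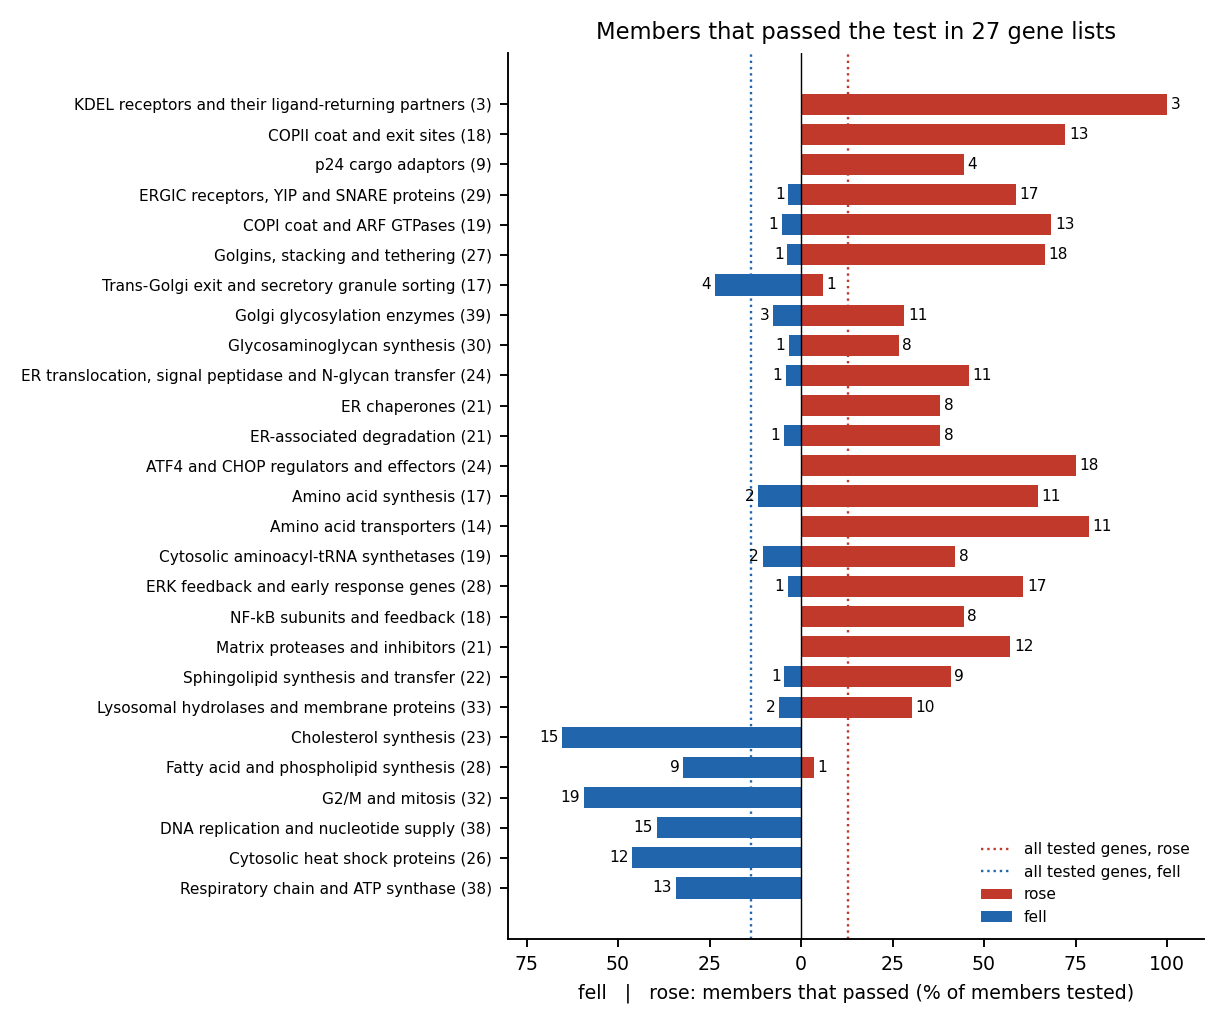
Share of tested members that rose (red, to the right) and fell (blue, to the left), in percent, for 27 of the gene lists; numbers beside bars count members, numbers in brackets give the members tested. Dotted lines give the shares over all genes tested, 12.8% and 13.5%. The secretory and amino acid lists extend to the right, sterol synthesis, mitosis and heat shock to the left, and the trans-Golgi list has 1 member to the right and 4 to the left.

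In the ER itself the lists had smaller medians. Of 24 genes for translocation, signal peptide removal and N-glycan transfer 11 rose and 1 fell (median 0.24). SEC61A1, the pore subunit, rose from 209.8, 198 and 232 FPKM to 373, 371 and 414 FPKM (0.86 ± 0.09, adjusted p = 6.03e-05) and SRPR, a subunit of the signal recognition particle receptor, by 0.90 ± 0.08. Of 21 ER chaperones 8 rose and none fell (13 rose with the block; median 0.25). HERPUD1, which serves ER-associated degradation, was at 36.9, 41.2 and 34.99 FPKM in mock and 119.7, 126 and 112 FPKM after salinomycin (1.64 ± 0.13, adjusted p = 1.72e-05). HSPA5 (BiP), the main Hsp70 of the ER, moved far less, from 374, 311 and 360.5 FPKM to 464, 504 and 509.6 FPKM (0.50 ± 0.11, adjusted p = 0.00549). The full ER stress element (ERSE, a CCAAT box and a CCACG box at a fixed distance) was in 12 tested genes' windows (0.127%), 5 of them among the 20 ER chaperones with a window (HSPA5, HSP90B1, CALR, CANX and CRELD2). Of those 5 only HSPA5 passed; the differences of the other four were 0.13 for HSP90B1, 0.03 for CALR, 0.15 for CANX and -0.02 for CRELD2. Its match, in capitals, is shown because HSPA5 is the standard reporter of this element.
HSPA5 (chr9:125241351-125241449, minus strand): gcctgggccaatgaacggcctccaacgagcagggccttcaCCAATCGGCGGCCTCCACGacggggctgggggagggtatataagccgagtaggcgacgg
Of 21 genes for ER-associated degradation 8 rose and 1 fell (median 0.24), led by SYVN1, a ubiquitin ligase, from 10.5, 11.2 and 14.2 FPKM to 27.8, 30.7 and 33.6 FPKM (1.30 ± 0.13), and by ERLEC1, a lectin (0.99 ± 0.09). Of 18 disulfide isomerases and oxidases 7 rose and none fell (median 0.12; 1 fell with the block), with PDIA5 at 1.21 ± 0.09 and the abundant P4HB at 0.94 ± 0.11.

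The calcium-binding CREC family divided. Of 6 tested members 4 rose and 1 fell (median 0.61). Beside RCN3, CALU rose from 121, 110.2 and 105 FPKM to 220.3, 226 and 216 FPKM (0.97 ± 0.10) and RCN1 by 0.77 ± 0.09. RCN2 fell from 66.8, 61.96 and 56.03 FPKM to 39.5, 42.05 and 43.96 FPKM (-0.55 ± 0.10, adjusted p = 0.00171). Among 10 transcription factors of Golgi and ER stress 4 rose and 2 fell (median 0.19). CREB3, a factor held in the ER membrane that is freed in the Golgi, rose from 29.9, 35.4 and 31.9 FPKM to 66.6, 64.2 and 57.97 FPKM (0.94 ± 0.12) and XBP1 by 0.91 ± 0.13. CREB3L1, which drives collagen and secretory genes, fell from 27.7, 36.7 and 35.6 FPKM to 17.3, 22.6 and 20.8 FPKM (-0.69 ± 0.12, adjusted p = 0.00128). Transcript levels do not report the cleavage or splicing that activates these factors.

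In the integrated stress response most targets and partners of ATF4 and CHOP rose, while the share of sensor genes called was near that of all genes. Of 24 regulators and effectors of ATF4 and CHOP 18 rose and none fell (median 0.86; 1 fell with the block). INHBE, an activin subunit, was at 0.286, 1.27 and 0.557 FPKM in mock and 5.43, 8.53 and 6.09 FPKM after salinomycin (2.19 ± 0.20, adjusted p = 3.24e-05). GDF15, a stress cytokine, was at 0.736, 2.13 and 3.33 FPKM in mock and 7.92, 10.1 and 11.9 FPKM after salinomycin (1.92 ± 0.35), and TRIB3, a pseudokinase that restrains ATF4, at 11.5, 27.6 and 19.2 FPKM in mock and 50.1, 51.6 and 47.9 FPKM after salinomycin (1.39 ± 0.23). Mock replicate 1 was the lowest of the mock libraries in all 3 genes, and no treated library fell into the mock range. Of 14 sensors and eIF2 control genes 2 rose and 2 fell (median 0.00), near the shares of all genes tested that rose (12.8%) and fell (13.5%). The rises were EIF2AK3 (PERK), from 5.51, 4.45 and 4.38 FPKM to 13.1, 12.6 and 12.8 FPKM (1.26 ± 0.11, adjusted p = 2.24e-05), and PPP1R15A (GADD34), which directs the dephosphorylation of eIF2, from 10.2, 11.2 and 12.2 FPKM to 38.9, 37.2 and 40.3 FPKM (1.71 ± 0.32).

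Amino acid supply moved with them. Of 17 synthesis genes 11 rose and 2 fell (median 0.89), and of 14 transporters 11 rose and none fell (median 0.93). ASNS, which makes asparagine, was at 27.5, 64.4 and 28.4 FPKM in mock and 110.4, 116 and 93.5 FPKM after salinomycin (1.49 ± 0.26, adjusted p = 0.00162). Mock replicate 2 was more than 2 times the other mock libraries and still under all 3 treated ones. CBS and CTH, of the route from homocysteine to cysteine, rose by 1.4987 ± 0.28 and 1.26 ± 0.25. SLC6A9, a glycine carrier, rose from 2.88, 8.29 and 4.25 FPKM to 15.9, 15.8 and 15.2 FPKM (1.54 ± 0.25), and SLC7A5, of the leucine carrier LAT1, from 49.1, 84.5 and 57.7 FPKM to 163, 135 and 145 FPKM (1.23 ± 0.21). SLC7A11, the cystine importer, rose by 1.28 ± 0.27. Of 19 cytosolic aminoacyl-tRNA synthetases 8 rose and 2 fell (median 0.26), led by GARS (0.85 ± 0.15). The element bound by ATF4 with CEBP partners, searched as TGATGNAAN, was in 1.67% of all tested windows. It was in 2.23% of those of genes that rose and 1.61% of those that fell. By list it was in 6 of 12 windows of the synthetases, 4 of 11 of the transporters and 3 of 11 of the synthesis genes. The ASNS window is shown as the textbook case, with the match in capitals.
ASNS (chr7:97872428-97872516, minus strand): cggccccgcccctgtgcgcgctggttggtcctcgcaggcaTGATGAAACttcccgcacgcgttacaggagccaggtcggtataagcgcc

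Genes that respond to growth factor signalling through ERK rose together. Of 28 ERK feedback and early response genes 17 rose and 1 fell (median 0.90), and their summed TPM rose from 782, 724 and 932 in the mock libraries to 1802, 1452 and 1906, a ratio of 2.12. FOSL1, a subunit of the AP-1 factor, was at 25.3, 19.1 and 30.5 FPKM in mock and 116, 80.1 and 121 FPKM after salinomycin (2.04 ± 0.19, adjusted p = 2.99e-05). DUSP5, a phosphatase that switches off ERK, was at 9.31, 7.96 and 10.6 FPKM in mock and 42.1, 29.3 and 39.2 FPKM after salinomycin (1.87 ± 0.21). Its relative DUSP4 was at 2.12, 1.82 and 2.72 FPKM in mock and 12.5, 7.38 and 10.1 FPKM after salinomycin (1.76 ± 0.15). Replicate 2 was the lowest of its group for all 3 genes, in mock and in treated cells, and no groups overlapped. EGR1 rose from 5.41, 4.68 and 7.14 FPKM to 23.2, 23.6 and 25.7 FPKM (1.92 ± 0.12, adjusted p = 2.07e-06). IER3 was at 0.939, 0.8099 and 1.43 FPKM in mock and 9.18, 5.17 and 9.06 FPKM after salinomycin (2.07 ± 0.21), with a recovered gene length 5.57 times that of the reference, so that its level is understated on this scale. MAFF, a small MAF factor, rose by 2.01 ± 0.21. The ligands EREG (1.43 ± 0.24) and EPGN (0.81 ± 0.19) of the EGF receptor rose as well, as did EGFR itself (0.45 ± 0.11). Over 27 growth factor ligands and receptors 6 rose and 2 fell (10 rose with the block, median 0.06), beside 12.8% and 13.5% of all genes tested.

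MYC was at 18.1, 19.8 and 23.1 FPKM in mock and 66.3, 53.3 and 69.4 FPKM after salinomycin, with no overlap (1.58 ± 0.14, adjusted p = 2.3e-05). Of 8 tested genes of its network 5 rose and none fell (median 0.42; 1 fell with the block), including its partner MAX, from 11.96, 10.9 and 13 FPKM to 20.6, 19 and 19.3 FPKM (0.68 ± 0.09), and the antagonists MNT (0.94 ± 0.11) and MXI1 (0.43 ± 0.11). Many ribosome biogenesis genes are known to be driven by MYC. Of 31 tested, 5 rose and none fell (median 0.06, 7 rose and 1 fell with the block). Among all genes tested 12.8% rose and 13.5% fell. RRP12 rose by 0.77 ± 0.14, while NOP56 was at 102, 79.7 and 94.4 FPKM in mock and 91.1, 76.4 and 84.8 FPKM after salinomycin with overlapping groups (adjusted p = 0.446).

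Of 18 NF-kB subunits and feedback genes 8 rose and none fell (median 0.38). NFKB2 was at 7.23, 9.44 and 11.3 FPKM in mock and 33.5, 29.4 and 34.1 FPKM after salinomycin (1.71 ± 0.15, adjusted p = 2.1e-05) and its partner RELB at 3.23, 2.77 and 4.24 FPKM in mock and 9.81, 8.89 and 10.8 FPKM after salinomycin (1.31 ± 0.18). The ubiquitin-editing enzyme TNFAIP3 (A20) rose from 1.86, 1.52 and 1.57 FPKM to 7.47, 5.75 and 6.797 FPKM (1.53 ± 0.35) and BIRC3 from 3.36, 1.92 and 1.802 FPKM to 12.2, 8.86 and 8.39 FPKM (1.70 ± 0.28). Of 13 tested cytokines and chemokines 6 rose and 1 fell (median 0.54). CXCL8 (interleukin 8) was at 0.763, 0.173 and 0.251 FPKM in mock and 6.63, 3.07 and 4.99 FPKM after salinomycin (2.06 ± 0.34, adjusted p = 0.00109), CXCL1 at 1.17, 0.909 and 1.02 FPKM in mock and 11.1, 3.77 and 8.12 FPKM after salinomycin (1.99 ± 0.46, adjusted p = 0.00738) and LIF at 0.0937, 0.0868 and 0.297 FPKM in mock and 1.19, 1.34 and 1.44 FPKM after salinomycin (1.01 ± 0.16). All 3 were low, and for both chemokines treated replicate 2 was the lowest treated library. Another 10 listed cytokines, among them IL6, TNF and CCL2, were below the filter. The strict NF-kB consensus was in 19 tested windows (0.201%), with 2 of 1209 for genes that rose (0.165%) and 0 of 1302 for genes that fell. It was in 3 of 10 cytokine windows (CXCL1, CXCL2 and CXCL3) and in 4 of 16 of the NF-kB list, and those 4 did not pass, with differences of 0.24 for NFKB1, 0.01 for REL, 0.36 for NFKBIA and 0.25 for NFKBIZ. With the replicate block NFKB1, NFKBIA and NFKBIZ passed (adjusted p = 0.0269, 0.00435 and 0.0402) and REL did not (0.939). Over all genes the general form of the site was in 12.7% of windows of genes that rose and 11.8% of those that fell. The CXCL1 window is given because this called chemokine holds a match, marked by capitals.
CXCL1 (chr4:73869274-73869363, plus strand): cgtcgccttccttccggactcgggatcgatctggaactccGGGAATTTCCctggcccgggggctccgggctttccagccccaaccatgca

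Lysosomal genes rose in part. Of 33 hydrolases and membrane proteins 10 rose and 2 fell (median 0.12), and their summed TPM rose 1.37 times. CTSL, a cysteine protease, was at 98.3, 97.5 and 119 FPKM in mock and 229, 188 and 233 FPKM after salinomycin (1.04 ± 0.14). CTSB, of the same family, was at 168, 209 and 212 FPKM in mock and 350.5, 320 and 355 FPKM after salinomycin (0.80 ± 0.09). Neither gene overlapped between groups. CD68, a lysosomal membrane protein listed among the leukocyte markers, rose by 0.66 ± 0.08. NPC1, which exports cholesterol from lysosomes and was listed with sterol uptake, rose from 25.2, 21.7 and 23.97 FPKM to 42.3, 35.5 and 39.5 FPKM (0.70 ± 0.10). Of 17 V-ATPase subunits 3 rose and 2 fell (median 0.00, 5 rose with the block), beside 12.8% and 13.5% of all genes tested. The lysosomal CLEAR element TCACGTGA was in 2.56% of windows of genes that rose, 0.998% of those that fell and 2.07% of all tested. Of 28 autophagy genes 6 rose and 2 fell (median 0.15). SQSTM1 (p62), a receptor for ubiquitinated cargo, was at 65.02, 80.9 and 80.2 FPKM in mock and 253, 202 and 218 FPKM after salinomycin (1.56 ± 0.16, adjusted p = 4.45e-05), and WIPI1, of the forming autophagosome, at 9.47, 10.2 and 8.74 FPKM in mock and 28.1, 27.3 and 26.8 FPKM after salinomycin (1.44 ± 0.12).

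Of 19 iron genes 8 rose and 3 fell (median 0.20). Storage and uptake rose together. FTL, the light chain of ferritin, was at 787, 958 and 725 FPKM in mock and 1905, 1498 and 1356 FPKM after salinomycin (0.94 ± 0.19), FTH1 at 1688, 1693 and 1523 FPKM in mock and 2857, 2387 and 2426 FPKM after salinomycin (0.64 ± 0.13), and TFRC, the transferrin receptor, at 116, 73.1 and 84.6 FPKM in mock and 187, 141 and 161 FPKM after salinomycin (0.85 ± 0.15). In each, replicate 1 was the highest treated library and no groups overlapped. The iron importer SLC39A14 rose by 0.74 ± 0.10. Of 22 sphingolipid genes 9 rose and 1 fell (median 0.18; 2 fell with the block). SPTLC2, of the enzyme that starts the pathway, rose from 9.79, 8.25 and 7.87 FPKM to 20.8, 18.8 and 19.1 FPKM (1.1001 ± 0.10, adjusted p = 2.16e-05), KDSR, of the following step, by 1.04 ± 0.12, SPHK1 by 1.12 ± 0.22 and COL4A3BP (CERT), which carries ceramide from ER to Golgi, by 1.15 ± 0.12. SPTLC1, the partner of SPTLC2, was at 32.6, 27.96 and 26.9 FPKM in mock and 34.4, 35.1 and 33.4 FPKM after salinomycin (adjusted p = 0.0824, and 0.0481 with the replicate block).

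Sterol synthesis fell. Of 23 tested enzymes none rose and 15 fell (median -0.49), and their summed TPM moved from 5183, 4433 and 4959 to 3590, 3805 and 3584, or 0.753 times. MVK, which phosphorylates mevalonate, was at 38.1, 48.9 and 54.4 FPKM in mock and 18.6, 23.01 and 22.5 FPKM after salinomycin (-1.10 ± 0.13, adjusted p = 0.000114), and IDI1, which isomerises isopentenyl diphosphate, at 204, 147 and 176 FPKM in mock and 79.5, 91.1 and 79.1 FPKM after salinomycin (-1.06 ± 0.13). INSIG1, which retains the sterol sensor in the ER, fell from 119, 95.5 and 118 FPKM to 45.3, 56.1 and 47.9 FPKM (-1.14 ± 0.26), and TMEM97, which binds NPC1, by 0.95 ± 0.14. SREBF2, the factor that drives these genes, was at 36.6, 42.6 and 45.9 FPKM in mock and 38.98, 42.9 and 43.5 FPKM after salinomycin (adjusted p = 0.974). Of 15 genes for sterol control and uptake 3 rose and 7 fell (median -0.12).

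Fatty acid genes followed in part. Of 28 tested 1 rose and 9 fell (median -0.06; 2 rose with the block), and summed TPM came to 0.72 times the mock level. SCD, the stearoyl-CoA desaturase, was at 727, 714 and 719.8 FPKM in mock and 309.9, 394 and 350.1 FPKM after salinomycin (-1.04 ± 0.10, adjusted p = 3.29e-05). The mock values were nearly equal and about 2 times the treated ones. LPIN1, a phosphatidate phosphatase, fell from 32, 25.8 and 25.7 FPKM to 15.9, 16.8 and 16.8 FPKM (-0.72 ± 0.09) and PCYT2, of phosphatidylethanolamine synthesis, by 0.56 ± 0.12. FASN, the fatty acid synthase, was at 89.5, 94.3 and 156 FPKM in mock and 83.9, 87.3 and 104 FPKM after salinomycin, with mock replicate 3 far above the others (adjusted p = 0.517). Of 9 targets of the sterol receptor LXR 2 rose and 1 fell (median -0.01), beside 12.8% and 13.5% of all genes tested. The fall was that of LPCAT3, which puts polyunsaturated chains into phospholipids, from 39.5, 36.4 and 36.3 FPKM to 14.3, 18.9 and 18.2 FPKM (-1.09 ± 0.13, adjusted p = 0.00013).

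Genes of the extracellular matrix were called in both directions, against 12.8% of all tested genes that rose and 13.5% that fell. Of 19 collagen chains 4 rose and 4 fell (median 0.02). COL1A1 was at 362, 534 and 572 FPKM in mock and 402, 533 and 549 FPKM after salinomycin, with overlapping groups (adjusted p = 0.934), while COL5A2 fell by 0.72 ± 0.16 beside COL3A1. The small proteoglycan LUM fell from 44.05, 56.5 and 42.7 FPKM to 17.9, 28.3 and 22.1 FPKM (-1.05 ± 0.14). Its relative DCN fell from 166, 191 and 158 FPKM to 92.4, 115 and 107 FPKM (-0.71 ± 0.10; recovered length 0.34 of that of the reference). FN1 (fibronectin) rose from 859, 742 and 737 FPKM to 1150, 1241 and 1173 FPKM (0.61 ± 0.09, adjusted p = 0.000391) and SPARC by 0.54 ± 0.09. Of 33 adhesive glycoproteins and proteoglycans 4 rose and 6 fell (median -0.03). Of 24 enzymes that mature collagen 8 rose and 1 fell (median 0.20; 12 rose and 3 fell with the block). LOX, the collagen cross-linking oxidase, was at 7.802, 8.24 and 6.72 FPKM in mock and 26.1, 26.2 and 23.5 FPKM after salinomycin (1.62 ± 0.11, adjusted p = 5.65e-06), P3H1, a prolyl hydroxylase, at 23.03, 24.9 and 28.2 FPKM in mock and 60.8, 60.5 and 67.5 FPKM after salinomycin (1.28 ± 0.10), and FKBP10, a collagen chaperone, at 58.98, 85.7 and 86.5 FPKM in mock and 134, 159 and 159 FPKM after salinomycin (0.98 ± 0.14).

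Of 21 matrix proteases and inhibitors 12 rose and none fell (median 0.32). MMP14, the membrane-bound collagenase, was at 36.1, 55.7 and 55.03 FPKM in mock and 109, 104 and 114 FPKM after salinomycin (1.16 ± 0.14, adjusted p = 0.000131). PLAU, which activates plasminogen, was at 7.55, 12.02 and 9.74 FPKM in mock and 23.6, 20.2 and 33.2 FPKM after salinomycin (1.30 ± 0.25). Its receptor PLAUR was at 7.58, 9.401 and 10.7 FPKM in mock and 24.6, 17.6 and 24.6 FPKM after salinomycin (1.18 ± 0.14). None of these 3 genes overlapped between groups.

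EMT genes moved both ways, beside 12.8% of all tested genes that rose and 13.5% that fell. Of 45 epithelial identity genes 4 rose and 3 fell (median -0.03), and with the block 7 rose and 9 fell. The filter counted all 12 libraries, so genes expressed in HMLE-pBp alone were tested too. Near 0 FPKM such genes can hardly move in log2(FPKM + 1), so these counts cannot show that the epithelial genes were unchanged. LAMB3, a laminin-332 chain, was the exception in size, from 9.85, 9.92 and 9.84 FPKM to 46.01, 29.4 and 32.1 FPKM (1.73 ± 0.15, adjusted p = 1.92e-05). CDH1 stayed at 0.0966, 0.0307 and 0.0519 FPKM in mock and 0.155, 0.0292 and 0.00811 FPKM after salinomycin, and KRT5 fell from 4.04, 2.91 and 1.55 FPKM to 0.936, 0.589 and 0.763 FPKM (-1.07 ± 0.19). Of 14 EMT transcription factors 2 rose and 2 fell (median 0.00; 4 rose with the block). SNAI1 fell from 4.03, 3.52 and 3.39 FPKM to 1.703, 1.81 and 1.99 FPKM (-0.71 ± 0.08, adjusted p = 0.000113). TWIST1 did not pass (difference 0.42 ± 0.26, adjusted p = 0.262), with an adjusted p of 0.0161 under the replicate block. VIM (vimentin) was at 1859, 1767 and 2123 FPKM in mock and 2533, 2153 and 2549 FPKM after salinomycin (adjusted p = 0.292, and 0.037 with the block). Of 25 mesenchymal surface and cytoskeletal genes 6 rose and 5 fell (median 0.02). CD44 rose from 76.6, 53.2 and 65.7 FPKM to 121, 94.8 and 116 FPKM (0.76 ± 0.13), while PDGFRB fell from 36.5, 46.9 and 36.7 FPKM to 19.5, 27.3 and 24.8 FPKM (-0.73 ± 0.13) and THY1 by 0.73 ± 0.12. Of 14 breast stem and progenitor markers 6 rose and 1 fell (median 0.30).

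Proliferation genes fell. Of 32 G2/M and mitosis genes none rose and 19 fell (median -0.32), and of 38 replication and nucleotide supply genes none rose and 15 fell (median -0.18). CDK1, the mitotic kinase, was at 81.97, 84.5 and 66.5 FPKM in mock and 44.7, 51.1 and 44.98 FPKM after salinomycin (-0.71 ± 0.11, adjusted p = 0.000803), and CCNE2, which drives S phase entry, at 27.4, 25.8 and 23.2 FPKM in mock and 14.1, 15.2 and 14.9 FPKM after salinomycin (-0.75 ± 0.09). KIF20A, a mitotic kinesin, fell by 0.65 ± 0.10. The losses lay well under 2-fold and the groups did not overlap in these 3 genes. MCM2 was at 90.5, 109.7 and 105 FPKM in mock and 88.7, 91.6 and 94.1 FPKM after salinomycin with overlapping groups (adjusted p = 0.325). Of 11 histone genes 5 fell and none rose (median -0.29), among them HIST1H1C (-0.68 ± 0.11). CDKN1A (p21) was at 15.7, 34.6 and 30.9 FPKM in mock and 34.8, 36.7 and 42.7 FPKM after salinomycin (adjusted p = 0.1, and 0.0254 with the block). Over 22 p53 targets 5 rose and 5 fell (median -0.06, 8 rose with the block). Among all genes tested 12.8% rose and 13.5% fell, and 19.5% rose with the block.

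Heat shock proteins of the cytosol fell. Of 26 tested none rose and 12 fell (median -0.35), and with the block 21 fell and 1 rose. HSP90AA1 was at 1064, 924 and 1017 FPKM in mock and 576, 578 and 627 FPKM after salinomycin (-0.75 ± 0.13, adjusted p = 0.00138) and DNAJB4 at 70.9, 51.6 and 53.3 FPKM in mock and 32.1, 35.2 and 34.97 FPKM after salinomycin (-0.75 ± 0.11). The ER chaperones that passed had all risen. Of 12 genes of the mitochondrial stress response 3 rose and 3 fell (median 0.14), and HSPE1, of the mitochondrial chaperonin, fell from 130.3, 106 and 106 FPKM to 73.7, 66.5 and 66.1 FPKM (-0.72 ± 0.10, adjusted p = 0.000271). Of 38 respiratory chain and ATP synthase genes 13 fell and none rose (median -0.16), with ATP5C1 from 238, 235 and 231 to 163, 158 and 160.3 FPKM (-0.55 ± 0.10). Of 50 cytosolic ribosomal protein genes 7 fell and none rose (15 fell with the block; median -0.11). Over all tested genes 13.5% fell, or 20.8% with the block. Among genes of at least 100 FPKM on average 25.5% fell, so the ribosomal count does not stand out as a fall.

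Several of the most abundant messages shifted. MT2A, a metal-binding metallothionein, was at 1554, 1429 and 1815 FPKM in mock and 3472, 2871 and 2932 FPKM after salinomycin (0.95 ± 0.10, adjusted p = 5.22e-05). The recovered length of MT2A was 0.53 of that of the reference. A length recovered too short could account for a rise of this size, and whether it was too short was not tested. ACTB, a cytoplasmic actin, fell from 2701, 2660 and 2711 FPKM to 2047, 1715 and 1908 FPKM (-0.51 ± 0.08). ACTG1, the other one, fell from 1573, 1476 and 1426 FPKM to 1048, 892 and 954 FPKM (-0.63 ± 0.10). LDHA fell by 0.42 ± 0.07. Both actins and MT2A were without overlap between groups. Metallothioneins, actins, ferritins, histones and ribosomal proteins have near-identical copies in the genome among which reads can be split, so their levels are uncertain. Among noncoding genes beside MEG3, LINC00941 rose by 0.97 ± 0.13. Its recovered length was 0.11 of that of the reference, so the limit given for MEG3 holds for it too. LINC01224 fell from 11.1, 11.3 and 9.32 FPKM to 5.89, 4.93 and 5.41 FPKM (-0.85 ± 0.10).

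The response differed from that of HMLE-pBp in 1615 genes (13.6%; limma interaction term, adjusted p under 0.05), being higher in HMLE-Twist for 828 (6.98%) and lower for 787 (6.64%). Of the 1519 genes that rose in HMLE-Twist, 531 had a higher response there than in HMLE-pBp and 8 a lower one. Of the 1605 that fell, 516 had a lower response and 2 a higher one. The count of differing genes moved with single libraries. It was 884, 814 and 795 without HMLE-Twist mock replicate 2, salinomycin replicate 1 and salinomycin replicate 3, and 872, 769 and 1068 without HMLE-pBp mock replicate 2, mock replicate 3 and salinomycin replicate 2. With the replicate block it was 3846. On the log2(FPKM + 1) scale the higher responses included those of RCN3, chemokines and ERK feedback genes. MEG3 was called too, but it was at 0 in 5 of the 6 HMLE-pBp libraries and passed the filter through HMLE-Twist alone, so its values cannot show a difference in response. RCN3 differed by 2.94 ± 0.17 (adjusted p = 3.55e-06), with a response of 0.30 in HMLE-pBp. With limma voom on the recovered reads its difference was 0.77 and did not pass (adjusted p = 0.513), so the call depends on the scale. Values in log2(FPKM + 1) understate responses at low levels. The cause was not tested. DUSP4 differed by 2.02 ± 0.22 (adjusted p = 0.000303), with -0.26 there. The lower responses included sterol and lipid genes. SCD fell in HMLE-Twist and had a response of 0.65 in HMLE-pBp (difference -1.69 ± 0.14, adjusted p = 4.09e-05). Secretory genes were divided. KDELR1 had a higher response in HMLE-Twist, by 0.66 ± 0.14 (adjusted p = 0.0112). Differences did not pass for KDELR3, COPG1 and GOLGA2, except that of KDELR3 with the replicate block (adjusted p = 0.0233) or without HMLE-pBp salinomycin replicate 3. KDELR3 responded by 2.95 in HMLE-pBp (difference -0.45 ± 0.18, adjusted p = 0.115), COPG1 by 1.23 (difference -0.06 ± 0.10, adjusted p = 0.727) and GOLGA2 by 1.18 (difference 0.21 ± 0.09, adjusted p = 0.145).

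**Figure D5:**
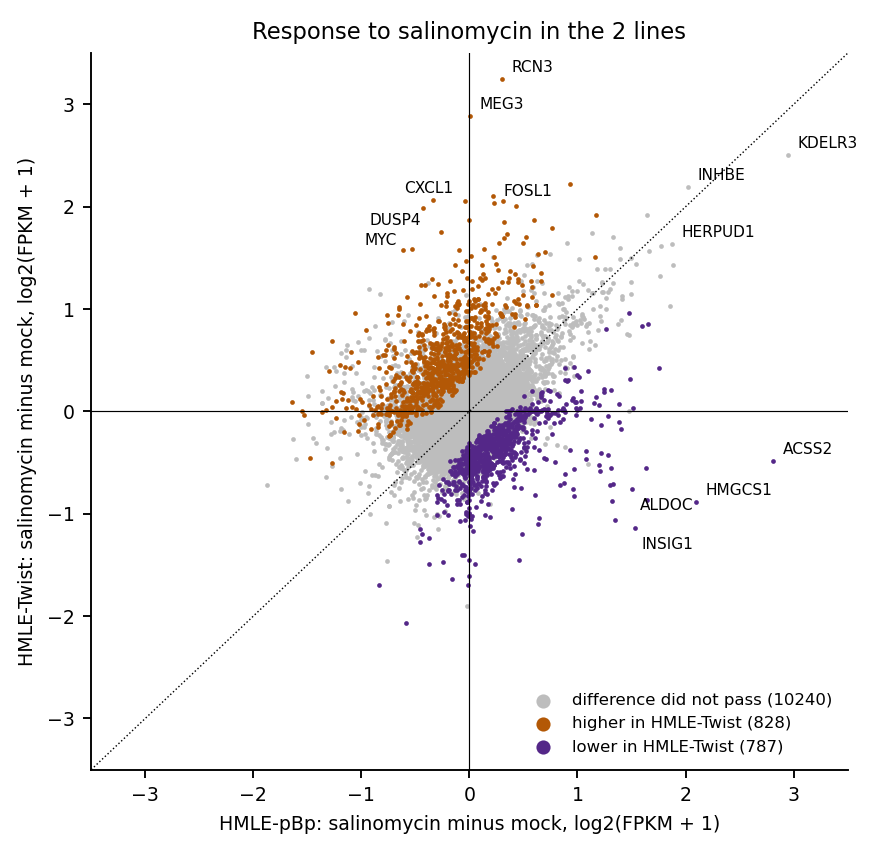
Each point is 1 gene, with its salinomycin response in HMLE-pBp on the horizontal axis and in HMLE-Twist on the vertical axis, both in log2(FPKM + 1); the dotted line marks equal responses. Brown points had a higher response in HMLE-Twist (828) and purple points a lower one (787). KDELR3 and HERPUD1 lie near the dotted line, RCN3 and MEG3 far above it, and ACSS2 and HMGCS1 far below it.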

How the data were processed

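RNA was sequenced from HMLE-Twist and HMLE-pBp cells, 3 libraries in each of 4 groups. Per the labels, libraries were stranded and poly(A)-selected, and the submitters' processing notes name build hg19 and DESeq2 1.1.0, while no aligner is given in the sources used here. The mock tables deposited by the authors hold FPKM, and the salinomycin tables deposited by the authors hold log2 values of normalised counts, shrunken as by a regularised logarithm. Because the units differ, both were brought to one scale. Whole reads per gene were recovered from both kinds of table, and within 0.1 of a read 98.5% of the HMLE-Twist salinomycin values and 96.0% of the HMLE-pBp ones came out whole. FPKM were then rebuilt for all 12 libraries with median-of-ratios size factors and recovered gene lengths. The rebuilt mock FPKM do not depend on the recovered length, while the salinomycin FPKM do. A length recovered too short would thus raise the salinomycin values alone. The recovery left 822 of 26364 genes unsettled and out of the tests, 335 of them with over 100 mock reads, by a rule on lengths that was set after fold changes had been seen. Of 12666 genes with a reference length (GENCODE 29), 63.6% were within 5% of it.

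Genes at 1 FPKM or more in at least 3 of the 12 libraries were tested with limma 3.58.1 (R 4.3.3) on log2(FPKM + 1), with a mean-variance trend, all 4 groups in one fit, no covariate and Benjamini-Hochberg adjustment at 0.05. A count model was not the main test because the reads are recovered values. On simulated data for HMLE-Twist (11881 genes) the fit recovered 57.1% of 2-fold and 30.6% of 1.5-fold changes, with 5 false calls. The simulation changed 98 tested genes at each fold, far fewer than the 3124 called here. It drew libraries independently and left out the read recovery, so these rates may not carry over. Same-numbered libraries deviated together from their group means (correlations 0.454, 0.43 and 0.718 in HMLE-Twist, 0.534, 0.226 and 0.595 in HMLE-pBp). A fit with the number as a block is therefore given where it changes a result. No label says that the numbers mark a shared culture or day, and the main fit and its p-values leave this pairing out. Depth was 17.91 to 26.73 megareads per library. Alternatives covered the pseudocount, the filter, scaling, the samples fitted, voom, gene lengths and leaving out each library. Promoter windows and their coordinates are from RefSeq on GRCh38.p14 and were not mixed with hg19. Genes named were the 20 largest called changes each way without overlap, up to 4 called members and 1 fixed member of each list, the 10 most abundant called genes each way, the 10 largest called differences between lines each way and the 5 largest changes each way of noncoding genes; uncalled members with a motif or a paralog, CLEC3B and the imprinted genes were chosen after their values were seen. The gene lists were chosen with earlier results of these data known. Some single-gene results are not reported here.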

Additional observations from a re-analysis of the deposited data

Results flagged for a closer look

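In 20 genes the response of HMLE-Twist and that of HMLE-pBp differed by the test of the difference itself (limma interaction term, with 3 libraries in each of the 4 groups), and the gene was also called in HMLE-Twist. They are the 10 largest such differences in each direction, in log2(FPKM + 1), HMLE-Twist minus HMLE-pBp. Higher in HMLE-Twist were RCN3 by 2.94, MEG3 by 2.88, the chemokines CXCL1 by 2.43 and CXCL8 by 2.09, and the early response genes IER3 by 2.41, MYC by 2.11 and DUSP4 by 2.02. SLCO4A1, an organic anion carrier, differed by 2.20, NFE2L3, a transcription factor of the NRF family, by 2.02 and CPZ by 1.88. Of these 10, the response in HMLE-pBp was above 0 for RCN3 (0.30), MEG3 (0.01) and CPZ (0.22) and below 0 for the others, from -1.06 for NFE2L3 to -0.04 for CXCL8. NFE2L3 was at 6.54, 4.47 and 5.34 FPKM in the HMLE-Twist mock libraries and 12.7, 11.5 and 10.2 FPKM after salinomycin, without overlap. With limma voom on the recovered reads the differences were 0.77 for RCN3 (adjusted p = 0.513), 2.68 for MEG3 (0.116) and 0.66 for CPZ (0.505), none of which passed. All 3 passed with pseudocounts of 0.1 and 0.5. These 3 calls thus depend on the scale, and log2(FPKM + 1) understates responses at low levels. The cause was not tested. MEG3 was at 0 in 5 of the 6 HMLE-pBp libraries and passed the filter through HMLE-Twist alone, so its difference cannot show a difference in response. The difference of CXCL1 (adjusted p = 0.0301) had adjusted p-values of 0.0687, 0.0789 and 0.0739 without HMLE-Twist mock replicate 2, salinomycin replicate 1 and salinomycin replicate 3, of 0.064, 0.0514 and 0.0626 without HMLE-pBp mock replicates 1, 2 and 3, of 0.0611 and 0.0509 without HMLE-pBp salinomycin replicates 2 and 3, and of 0.0638 with no filter.

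Lower in HMLE-Twist were ACSS2, which makes acetyl-CoA from acetate, by -3.30, and the sterol genes HMGCS1 by -2.98, INSIG1 by -2.66, ACAT2 by -2.51, IDI1 by -2.41, TM7SF2 by -2.19 and MSMO1 by -2.04. The aldolase ALDOC differed by -2.27, TSC22D3, a glucocorticoid-induced gene, by -2.02 and the transcribed pseudogene WFDC21P by -1.91. All 10 fell in HMLE-Twist and had responses above 0 in HMLE-pBp, from 0.46 for WFDC21P to 2.81 for ACSS2. The fall of ACSS2 within HMLE-Twist (-0.48, adjusted p = 0.0204) had adjusted p-values of 0.0811, 0.0615 and 0.0862 without mock replicate 2, salinomycin replicate 1 and salinomycin replicate 3. That of TSC22D3 (-0.72, adjusted p = 0.0111) had 0.052 and 0.0521 without salinomycin replicates 1 and 3, and 0.052 with the 6 HMLE-Twist libraries alone.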

How the results depend on the processing

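The count of changed genes in HMLE-Twist (3124) came to 4785 with the replicate block and 2049 among genes within 5% of their reference length, where fewer genes are tested. Rises (1519) came to 2316 with the block. Falls (1605) came to 2469 with the block, 988 near the reference length and 1024 with the 6 HMLE-Twist libraries alone, and the cause of the last was not tested. Leaving out 1 library at a time gave 2192 to 3447 changed genes, 1146 to 1676 rises and 1046 to 1789 falls, the fewest falls without salinomycin replicate 3. The genes whose response differed between lines (1615) came to 3846 with the block, 2006 higher and 1840 lower, and the lower ones to 493 near the reference length. Leaving out 1 library gave 769 to 2360 such genes, 420 to 1189 higher and 349 to 1171 lower. No result reversed. Of 154 called genes that the text names, 152 kept their call under every alternative that tested them, and the exceptions were ACSS2 and TSC22D3. The block changed no other call than those of CDKN1A, SPTLC1, TWIST1, VIM, NFKB1, NFKBIA and NFKBIZ, and of the difference between lines for KDELR3, which did not pass without it. CDKN1A also passed without mock replicate 2 (adjusted p = 0.0387), SPTLC1 without mock replicate 1 (0.019), TWIST1 without mock replicate 3 (0.00624) and VIM with the 6 libraries alone (0.0474). Depth of 19.41 to 26.73 megareads limits the genes of a few reads, and levels under 1 FPKM were mostly left untested.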

Other observations

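Imprinted genes, of which 1 parental copy is normally silent, were gathered after MEG3 and MEST were seen among the largest changes, so their values are a description with no test of the group. Of 24 well-known imprinted genes 12 were tested, of which 2 rose, 4 fell and 6 did not pass. Another 7 were below the filter and 5 were not used here. Among all genes tested 12.8% rose and 13.5% fell. MEG9, a noncoding RNA of the same imprinted cluster as MEG3, was at 0.757, 0.988 and 1 FPKM in mock and at 2.22, 2.31 and 2.71 FPKM after salinomycin. At 0 in every HMLE-pBp library, MEG9 passed the filter only with its treated libraries, so its call among the rises is no independent support. MEG8, of the cluster too, was at 0.468, 0.198 and 0.575 FPKM and at 2.04, 0.565 and 1.49 FPKM, below the filter and with overlapping groups. SGCE, the neighbour of PEG10 that shares its imprinted control region, was at 24.3, 30.1 and 26 FPKM in mock and 23.4, 26.3 and 25.9 FPKM after salinomycin and did not pass (difference -0.08 ± 0.09, adjusted p = 0.553), while PEG10 fell. DIRAS3 fell by 0.60 and NAP1L5 by 0.51 on the log2 scale. MEG3 was at 0 in 5 of the 6 HMLE-pBp libraries and at 0.0145 FPKM in the other.

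CLEC3B (tetranectin) had the second-largest fitted fall among called genes, and it was left out of the named genes because its groups overlapped. It was at 22.3, 59.8 and 87.4 FPKM in mock replicates 1, 2 and 3 and at 6.13, 12.3 and 24.1 FPKM after salinomycin (difference -1.91 ± 0.46, adjusted p = 0.00893). Each treated library was under the mock library of the same number.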
